A study of Macaca fascicularis with 28 samples.

Results

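The genes described here carry the Wnt signal from the ligand to the nucleus, and they were followed through taste buds and the lingual epithelium (LE) around them. A gene was included if its symbol begins with WNT and a digit, FZD, SFRP, DKK, RSPO, DVL, AXIN, TCF7, NKD or KREMEN, or is LRP5, LRP6, LGR4, LGR5, LGR6, APC, APCDD1, CTNNB1, LEF1, WIF1, PORCN, RNF43 or ZNRF3. This gave 58 genes of the 14872 genes with a symbol on the array, 1 probe set for each. CTNNB1, which encodes beta-catenin itself, and AXIN1, DVL1, DVL3, FZD2, RSPO4, WNT3A, WNT9A and DKKL1 were not analysed here.

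Gene expression was measured in cynomolgus macaque tongue on 28 Affymetrix Rhesus macaque arrays, each loaded with amplified RNA from about 5000 laser-captured cells of 1 animal. The first array set held circumvallate (CV) taste buds from the back of the tongue and the surface LE beside CV papillae, each from 4 animals of 2.6 to 4 years, and fungiform (FG) taste buds from the front of the tongue and the LE beside FG papillae, each from 6 animals of 2.6 to 4.5 years. The second set held the top and the bottom fraction of CV taste buds of 4 other animals, all 3 years old. Both sexes were present (2 male and 4 female animals in the first set, 1 male and 3 female in the second), and no genotype or treatment is given for any animal. The animals are numbered 1 to 6 in the first set, with CV samples from 1, 3, 4 and 5, and 7 to 10 in the second, and values of single samples are listed in that order. Labels name the captured tissue only, so that each sample is a mixture of the cells in it.

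Wnt ligands are lipid-modified proteins that act over short distances. On the canonical route a ligand binds a frizzled receptor and an LRP co-receptor, a cytoplasmic complex stops degrading beta-catenin, and beta-catenin enters the nucleus and works with TCF and LEF factors. The pathway switches on several of its own inhibitors, and in mice it is needed for taste papillae to form and for taste cells to be renewed.

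Values are normalized intensities in arbitrary units, quantile normalized over all arrays, and levels of different probe sets cannot be set against each other. A log2 change is a difference between group means of log2 intensity, with its standard error (SE), from limma fitted to all probe sets that reached 25 units in at least 4 samples of the fit. A gene was called higher or lower where its p, adjusted by Benjamini-Hochberg, was 0.05 or less. Folds raise values under 25 to 25, and are given as "at least" where every sample of the dimmer group lay under 25. Of the 58 genes, 42 reached 25 units in at least 4 of the 28 samples, 10 reached it in 1 to 3 samples and 6 in none, and 40 entered the fit of the first set. These 40, and the 42 genes tested over all 28 samples, include genes that passed the filter only through the group in which they were high. Among them in the first set were LGR5, which passed through CV buds, and WNT4, WNT6, WNT7A and WNT7B, which passed through LE.

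The tissue labels were checked with marker genes. The summed intensity of 7 type II taste cell markers was 13807 to 19529 in CV buds, 14491 to 18529 in FG buds, and 178 to 225 and 169 to 276 in the LE beside them. The sum of 14 differentiated keratinocyte markers was 8559.8 to 12365 in CV buds, 5403 to 24726 in FG buds and at least 91692 in every LE sample. Markers of basal keratinocytes were higher in the taste buds as well (sums of 2867 to 4326 in CV and 4872 to 6147 in FG, and 859 to 2293 and 331 to 4616 in LE), with 4 of 5 called higher at both sites and TP63 called lower in FG buds. Leukocyte markers were lower in CV buds (a sum of 228 to 513 for 5 genes) than in the LE beside them (3496 to 5159). Of 4 type I taste cell markers, 2 stayed under 25 units in every sample. Among the 2 tested, 1 was called higher in CV buds and 1 lower in FG buds. The sum of all 4 was 529 to 1353 in CV buds and 78.1 to 164 in their LE. At the FG site it was 59.4 to 208 in buds and 108 to 290 in LE, so type I markers did not set FG buds apart. Markers of several cell types moved with every comparison of buds with LE given here, and their part in it was not tested. In such mixed samples fewer cells of a type and less RNA per cell cannot be told apart.

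CV taste buds had 12 of the 40 tested Wnt genes higher than the adjacent LE, and 6 lower. Over all tested probe sets, 17.3% were higher and 18.0% lower. The largest increases were those of LEF1, a nuclear partner of beta-catenin, and AXIN2, a scaffold of the degrading complex that the pathway itself induces, at 7.19 and 6.36 on the log2 scale. The R-spondin receptors LGR5 and LGR6, the ubiquitin ligase ZNRF3, the inhibitors APCDD1, WIF1 and NKD1, the receptors LRP6 and FZD3 and the ligands WNT5B and WNT11 were higher too. The ligands WNT4, WNT7B and WNT6, the ligand-modifying enzyme PORCN, the receptor FZD5 and the adaptor DVL2 were lower.

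FG taste buds had 12 of the 40 genes higher and 8 lower, where 21.1% of all tested probe sets were higher and 20.2% lower. AXIN2 and LEF1 again had the largest increases (6.74 and 5.30 on the log2 scale), and WNT4 again the largest decrease (-4.56). Of the genes called higher, 9 were higher at both sites, which is 75.0% of either list, beside 70.0% of the CV list and 57.5% of the FG list over all tested probe sets. Of those called lower, 5 were lower at both sites, 83.3% of the CV list and 62.5% of the FG list, beside 61.6% and 55.0% over all tested probe sets. The median change of the 40 genes was 0.09 in CV and 0.29 at the FG site, beside -0.08 and 0.05 over all tested probe sets.

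The counts also depended on how probe sets were named. Of the 58 genes, 12 have a probe set in the part used here of the study's own table of taste bud genes. The study selected that table on these samples for being higher in taste buds. Its text also counts WNT5A as present there, so that 12 is a lower limit. For 11 of the 12 that probe set is the one read here, and for FZD1 it is the one ranked 2 in brightness. Those 11 supplied 10 of the 12 genes called higher in CV and 8 of the 12 called higher at the FG site, so they are not independent evidence of a direction. FZD3, LGR6, LRP6, NKD1 and ZNRF3 were read from probe sets that carry a name only in that table, and the probe set read for LEF1 is annotated LOC708226. With the array annotation alone, 6 of 37 tested genes were higher at each site. Over all tested probe sets 17.3% were higher in CV and 21.1% in FG, so these counts gave no excess.

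**Figure D1:**
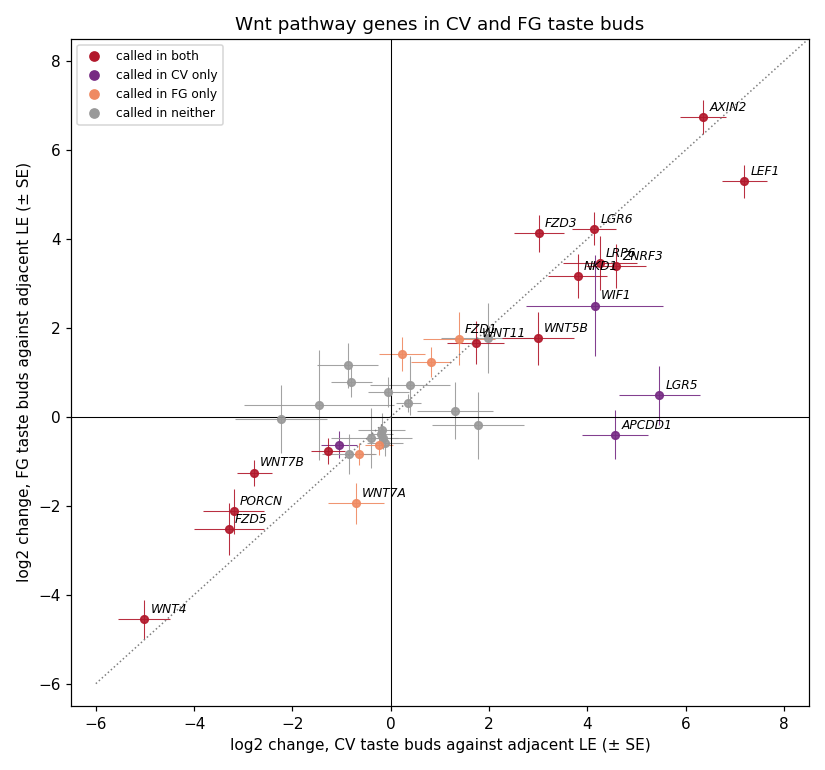
Log2 change of each of the 40 tested Wnt genes between taste buds and adjacent LE, in CV (horizontal axis) and FG (vertical axis) taste buds. Points are limma estimates, bars are standard errors, colours give the calls, and the dotted line marks equal changes. AXIN2 and LEF1 lie at the upper right, WNT4 at the lower left, and LGR5 (5.47 in CV, 0.48 in FG) and APCDD1 (4.57 and -0.40) far to the right of the line.

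Among the ligands, 8 of 17 WNT genes were tested. WNT1, WNT2, WNT2B, WNT3, WNT8A, WNT8B, WNT10A, WNT10B and WNT16 stayed under 25 units in at least 25 of the 28 samples. WNT4, a ligand best known from kidney and reproductive tract development, was higher in LE. Its intensity was 17.1, 16.8, 21.1 and 16.5 in CV taste buds and 1199, 250.2, 683 and 529 in the adjacent LE. At the FG site it was 10.8 to 21.8 (median 17.2) in the buds, and in the LE beside them 136 to 1060.3 (median 386). No whole taste bud sample reached 25 units and no LE sample was below 136 units. In CV buds the log2 change was -5.01 ± 0.53 (adjusted p = 8.34e-06, at least 22.9-fold lower). For FG buds it was -4.56 ± 0.43 (adjusted p = 2.36e-06, at least 15.3-fold lower), and each animal had the lower value in its buds.

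WNT7B, which acts in epithelia of the lung and skin among others, had the same direction. It read 9.82, 10.4, 9.98 and 7.59 in CV taste buds and 52.1, 83.7, 81.3 and 48.3 in their LE, without overlap (log2 change -2.78 ± 0.36, adjusted p = 5.08e-05, at least 2.57-fold lower). At the FG site the buds had 8.86 to 14.7 (median 12.3) and the LE 18.6 to 55.9 (median 23.3), which did not overlap although all buds and most LE samples lay under 25 (log2 change -1.25 ± 0.29, adjusted p = 0.00421). WNT7A was called lower in FG taste buds only, with 6.61 to 20.5 (median 8.99) against 14.1 to 249 (median 29.6) (log2 change -1.95 ± 0.47, adjusted p = 0.00498). Its highest LE value came from animal 1. The FG calls of both WNT7 genes were lost when values under 25 were raised to 25, with adjusted p-values of 0.250 for WNT7B and 0.158 for WNT7A. Both genes passed the filter only through LE samples.

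WNT6 and WNT9B were dim everywhere. WNT6 was 14.7, 15.8, 8.33 and 13.8 in CV taste buds and 60.0, 33.2, 22.5 and 20.3 in their LE (log2 change -1.27 ± 0.35, adjusted p = 0.0122), and 12.1 to 18.8 (median 14.3) against 17.4 to 43.0 (median 23.9) in FG (log2 change -0.77 ± 0.29, adjusted p = 0.0444). WNT9B was called in FG only, at 13.1 to 25.8 (median 19.8) against 20.7 to 41.2 (median 31.6) (log2 change -0.62 ± 0.23, adjusted p = 0.0429). These calls rest on values around 25 units. Raising values under 25 to 25 ended all of them. The CV call of WNT6 was also lost without animal 4, its FG call without animal 2, 4 or 5, and the WNT9B call without animal 1, 2, 3, 4 or 6.

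WNT5B and WNT11, which mostly signal without beta-catenin, lay on the other side. WNT5B read 42.3, 114, 72.4 and 451 in CV taste buds and 10.2, 26.1, 11.1 and 13.3 in the LE, with every taste bud sample above every LE sample (log2 change 2.99 ± 0.74, adjusted p = 0.00625). FG buds had 26.0 to 141 (median 62.6) and the LE 6.76 to 49.3 (median 21.0), and these ranges overlapped (log2 change 1.77 ± 0.60, adjusted p = 0.0301, higher in 5 of 6 animals). WNT11 read 312, 127, 32.8 and 64.5 in CV taste buds and 26.1, 35.4, 41.7 and 18.2 in LE, an overlap that came from animal 4 (log2 change 1.73 ± 0.58, adjusted p = 0.0337). FG buds had 57.8 to 294 (median 88.9), above all LE samples at 24.7 to 49.4 (log2 change 1.67 ± 0.48, adjusted p = 0.013). The FG call of WNT5B was lost when animal 2, 3, 4 or 5 was left out or values under 25 were raised to 25. That of WNT11 was lost in CV without animal 1, 3 or 5 or without the filter, and in FG without animal 5.

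WNT5A, the near relative of WNT5B, was bright in all 28 samples and was called at neither site. It read 410.0, 294, 556 and 713 in CV taste buds and 421, 1421, 901 and 815 in LE (log2 change -0.80 ± 0.41, adjusted p = 0.145), and 553 to 1436 (median 1161) and 458 to 657 (median 587) in FG taste buds and LE (log2 change 0.79 ± 0.33, adjusted p = 0.0743). The gene has other probe sets, of which the ranks 2 and 3 in brightness were called higher in FG taste buds, at 2.05 and 1.73 on the log2 scale.

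**Figure D2:**
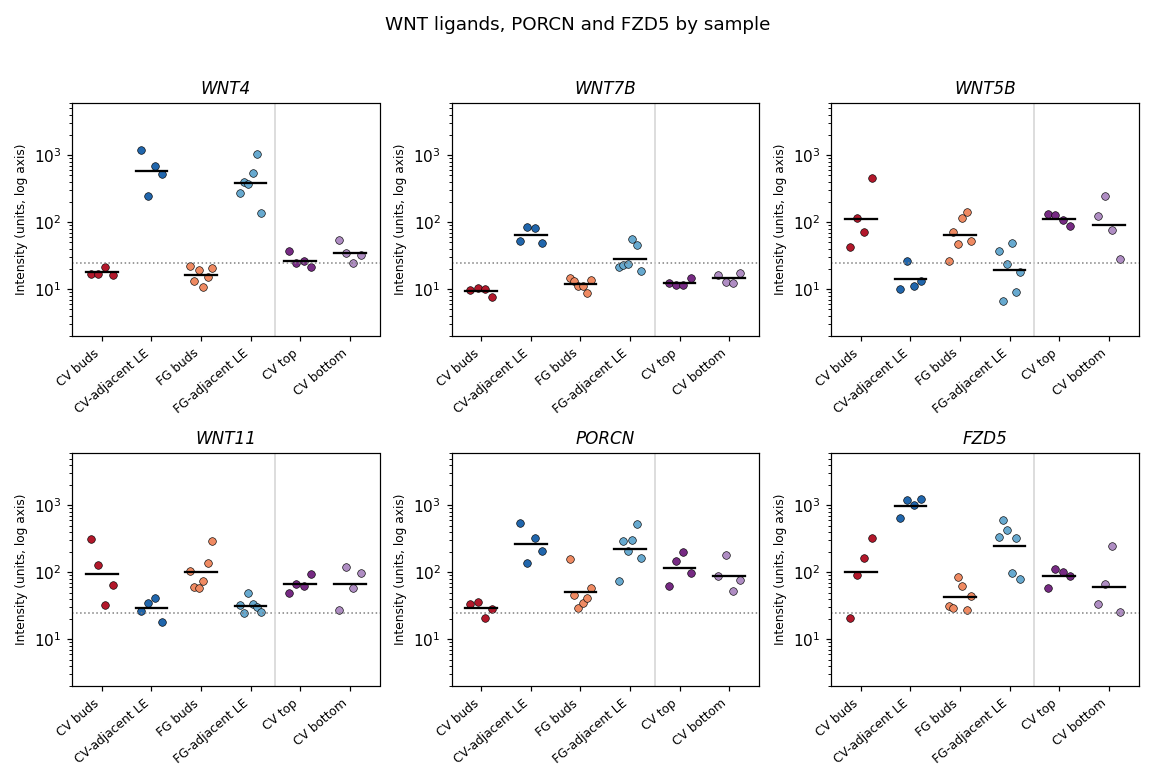
Intensity in each sample (points, log axis, units) of 4 WNT ligands, PORCN and FZD5 in the 6 groups, with the mean of the log2 values as a bar and the 25-unit minimum as a dotted line. The grey line separates the array sets. WNT4 lies under 25 units in all whole taste bud samples and at 136 units or more in all LE samples, while WNT5B and WNT11, called higher in whole buds at both sites, have overlapping ranges at 1 site each.

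PORCN, the enzyme in the secretory pathway that attaches the lipid without which Wnt ligands are not released, was lower in whole taste buds. Its intensity was 33.3, 36.5, 20.5 and 28.3 in CV taste buds and 539, 136, 323 and 208 in LE, without overlap, and the log2 change was -3.19 ± 0.62 (adjusted p = 0.00133). FG buds had 28.9 to 158 (median 44.0) against 75.2 to 524 (median 253) in LE (log2 change -2.12 ± 0.51, adjusted p = 0.00483), lower in 5 of 6 animals. The exception was animal 1, with the highest FG and the lowest LE value.

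Of 9 frizzled receptors tested, 1 was higher and 1 lower in CV buds, and 2 were higher and 2 lower in FG buds, where the shares over all tested probe sets were 17.3% and 18.0%, and 21.1% and 20.2%. FZD3, known for its part in axon guidance and cell polarity, read 242, 292, 234 and 337 in CV taste buds and 48.0, 28.6, 42.7 and 22.4 in LE (log2 change 3.01 ± 0.51, adjusted p = 0.000435). FG buds had 135 to 487 (median 285) and the LE 5.80 to 40.4 (median 18.2) (log2 change 4.13 ± 0.41, adjusted p = 4.1e-06), without overlap at either site. The brightest of the probe sets that the array annotation gives to FZD3 went the other way, with log2 changes of -1.38 in CV and -0.72 in FG buds. Neither was called (adjusted p = 0.222 and 0.424). Its other annotated probe sets, ranked 3 and 4, stayed under 25 units in all samples.

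FZD5, a receptor of the canonical route, was higher in LE. It read 20.8, 91.6, 164 and 331 in CV taste buds and 642, 1197, 1003 and 1263 in LE, without overlap (log2 change -3.30 ± 0.71, adjusted p = 0.00272). FG buds had 27.7 to 85.9 (median 37.9) and the LE 79.3 to 604 (median 331) (log2 change -2.53 ± 0.58, adjusted p = 0.00381), lower in 6 of 6 animals. FZD8, its closest relative, was called lower in FG taste buds, at 22.1 to 59.3 (median 32.9) against 40.9 to 75.0 (median 59.3) (log2 change -0.83 ± 0.25, adjusted p = 0.0158). This call was lost when animal 3, 4 or 5 was left out. In CV taste buds FZD8 was 29.9, 30.7, 31.4 and 23.3 against 65.7, 32.8, 45.3 and 40.4 in LE, lower in every animal but not called (adjusted p = 0.114).

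FZD1 was bright in taste buds, at 582 to 1669 (median 1009.9) in FG and 538, 700.4, 576 and 678 in CV, against 80.9 to 682 (median 451) in the LE beside FG papillae and 45.5, 368, 517 and 369 in that beside CV papillae. The ranges overlapped at the FG site. It was called in FG buds (log2 change 1.76 ± 0.60, adjusted p = 0.0298, higher in 6 of 6 animals) and not in CV buds (1.38 ± 0.73, adjusted p = 0.156). The FG call was lost without animal 3, 4 or 5. Its probe sets disagreed: the one ranked 2 in brightness was higher by 4.03 in CV and 3.16 in FG buds on the log2 scale, and the one ranked 3 fell by 1.08 in FG.

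FZD4, FZD6, FZD7, FZD9 and FZD10 were called at neither site. FZD4, a receptor needed for retinal vessels, stayed under 25 units in all LE samples but 1 and in most taste bud samples, with 15.3, 14.6, 8.03 and 191 in CV taste buds, where animal 5 stood apart. FZD10 was bright in both tissues, with 784 to 1498 in CV taste buds and 814 to 1365 in LE.

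LRP6, the co-receptor that starts the canonical route, was higher in taste buds at both sites. Its intensity was 1097, 1277, 1584 and 2607 in CV taste buds and 7.45, 150.5, 167 and 233 in LE, and 1488 to 2240.2 (median 2032) and 64.1 to 288 (median 204) at the FG site. Every taste bud sample lay above every LE sample, and the lowest LE value, from animal 1, lay far under the others. Its log2 change was 4.25 ± 0.75 in CV buds (adjusted p = 0.000615). That in FG buds was 3.45 ± 0.61 (adjusted p = 0.000625). The annotation gives LRP6 to the probe sets ranked 2 and 3 in brightness, and these disagreed. The one ranked 2 was not called (log2 changes of -0.38 and -0.69, adjusted p = 0.741 and 0.41). The one ranked 3 was higher by 1.24 and 1.26, called at both sites. LRP5, the sister co-receptor, reached 25 units in 2 samples only.

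R-spondins amplify the Wnt signal through the receptors LGR4, LGR5 and LGR6, which keep the ubiquitin ligases ZNRF3 and RNF43 from removing frizzled proteins. The ligands RSPO1, RSPO2 and RSPO3 were dim, at 25 units or more in 1, 0 and 3 of 28 samples. LGR6 was high in taste buds at both sites. It read 180.2, 594, 454 and 337 in CV taste buds against 15.9, 21.2, 22.2 and 22.7 in LE (log2 change 4.14 ± 0.45, adjusted p = 1.18e-05, at least 14.3-fold higher). FG buds had 112 to 818 (median 479) and the LE 11.6 to 33.6 (log2 change 4.23 ± 0.37, adjusted p = 1.13e-06). The highest LE sample had 33.6 units and the lowest taste bud sample 112.

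LGR4 was measured in most samples of both tissues and was called at neither site. It was 174 to 287 in CV taste buds and 7.15, 256, 218 and 58.2 in their LE (log2 change 1.78 ± 0.93, adjusted p = 0.155), and 106 to 453 (median 151) and 30.4 to 388 (median 375) at the FG site (log2 change -0.19 ± 0.76, adjusted p = 0.857).

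ZNRF3, which is itself induced by the pathway, was higher in taste buds as well. It read 199, 210.2, 246 and 230.2 in CV taste buds and 18.8, 6.28, 4.93 and 12.2 in LE (log2 change 4.58 ± 0.61, adjusted p = 6.13e-05, at least 8.82-fold higher). FG buds had 142 to 293 (median 214) and the LE 6.19 to 106 (median 20.6) (log2 change 3.39 ± 0.49, adjusted p = 0.000134). The highest LE value came from animal 3. RNF43, the other ligase, was bright everywhere, with 1675 to 2009.8 in CV taste buds and 1156 to 1785 in LE, and was not called (log2 changes of 0.36 ± 0.24 and 0.31 ± 0.20). Its probe set ranked 2 was called higher by 2.74 in CV and 1.75 in FG buds on the log2 scale.

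AXIN2 separated the tissues widely on the probe set read, its brightest. Its intensity was 1073, 1174, 1126 and 1245 in CV taste buds and 16.9, 45.5, 6.92 and 7.33 in LE, and 1014 to 1804 (median 1452) in FG buds and 9.57 to 24.8 (median 12.6) in LE. The lowest whole taste bud sample had 1014 units and the highest LE sample 45.5. Its log2 change was 6.36 ± 0.47 in CV buds (adjusted p = 3.47e-07). That in FG buds was 6.74 ± 0.39 (adjusted p = 1.58e-08, at least 56.1-fold higher). The other 3 probe sets of AXIN2 were dim, at 34.6 units or less in all samples, and did not separate the tissues. The one ranked 2 in brightness read 11.6 to 19.4 in CV buds and 13.0 to 25.1 in their LE.

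LEF1 read 1826, 1252, 1246 and 1285 in CV taste buds and 10.5, 7.55, 6.82 and 14.8 in LE, with the highest value in animal 1. FG buds had 440.3 to 1054 (median 720.2), below all CV samples, and the LE 7.37 to 38.5 (median 20.6). The log2 change in CV buds was 7.19 ± 0.46 (adjusted p = 7.87e-08, at least 55.3-fold higher) and that in FG buds 5.30 ± 0.38 (adjusted p = 1.35e-07). The difference between CV and FG buds was not called (log2 difference 1.14 ± 0.44, adjusted p = 0.314), although all 4 animals with both sites had the higher value in CV.

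The other nuclear factors were measured in both tissues. TCF7L2, the main partner of beta-catenin in gut epithelium, was 1571 to 2643 (median 2092) in FG taste buds and 360.4 to 2573 (median 791) in LE, where the highest LE sample, from animal 3, reached the level of the taste buds (log2 change 1.42 ± 0.38, adjusted p = 0.00928). The TCF7L2 probe set ranked 2 in brightness read 1501 to 2483 in FG buds and 262 to 704 in LE, without overlap. There animal 3 had the lowest LE value. TCF7L1, mostly a repressor, was 37.2 to 95.9 (median 55.9) against 17.2 to 46.4 (median 22.1) (log2 change 1.24 ± 0.33, adjusted p = 0.00903). Neither was called in CV taste buds (0.22 ± 0.47 and 0.82 ± 0.40), and TCF7 was called at neither site (1.98 ± 0.96 in CV, 1.77 ± 0.78 in FG).

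NKD1, which binds Dishevelled and dampens the signal, read 295, 67.8, 188 and 475 in CV taste buds and 16.3, 20.2, 8.00 and 17.8 in LE (log2 change 3.81 ± 0.60, adjusted p = 0.000263, at least 8.23-fold higher). FG buds had 101 to 554 (median 133) and the LE 9.36 to 31.9 (median 19.0), without overlap (log2 change 3.17 ± 0.49, adjusted p = 0.000212). The probe set that the annotation names NKD1 went the other way, with log2 changes of -0.47 in CV buds (not called, adjusted p = 0.211) and -0.84 in FG buds (called, adjusted p = 0.0107). NKD2 was at 36.2 to 64.9 in CV taste buds and 41.7 to 68.8 in LE, and was not called. DVL2, a Dishevelled protein that relays the signal from frizzled, was 32.5, 66.0, 53.1 and 40.3 in CV taste buds and 191, 80.7, 104 and 52.4 in LE, lower in every animal although the ranges overlapped (log2 change -1.05 ± 0.37, adjusted p = 0.0398). This call was lost under 7 alternatives, among them those without animal 1, 4 or 5. APC, the core of the degrading complex, was called at neither site (-0.87 ± 0.62 and 1.16 ± 0.51).

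**Figure D3:**
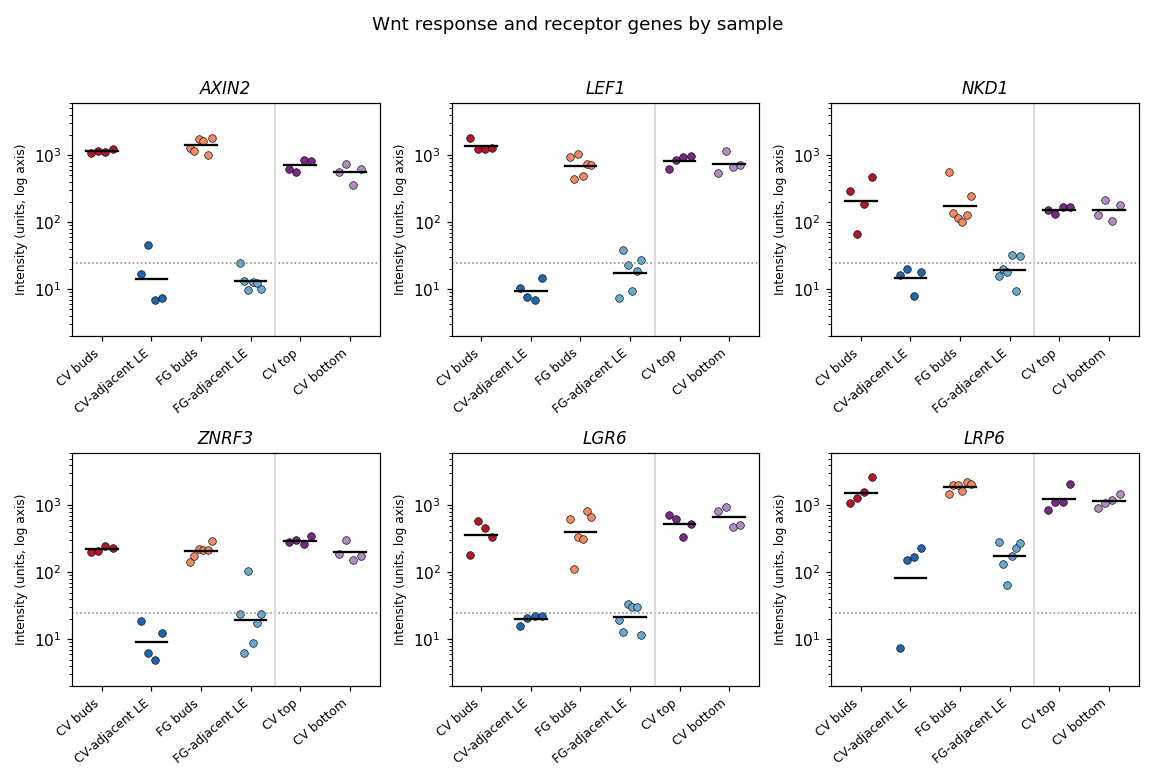
Intensity in each sample (points, log axis, units) of AXIN2, LEF1, NKD1, ZNRF3, LGR6 and LRP6 in the 6 groups, with the mean of the log2 values as a bar and the 25-unit minimum as a dotted line. The grey line separates the array sets. In each panel all taste bud samples lie above all LE samples, including those of the CV bud fractions.

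Of 9 secreted inhibitors, 5 were tested in the first set, with 1 higher in CV buds, 0 higher in FG buds and 0 lower at either site. Over all tested probe sets, 17.3% were higher and 18.0% lower in CV, and 21.1% and 20.2% in FG. So few tested genes allow no statement about the family. WIF1, which captures Wnt ligands, was called higher in CV taste buds, at 249, 9.69, 241 and 160.4 against 5.53, 4.61, 6.08 and 6.12 in LE (log2 change 4.15 ± 1.40, adjusted p = 0.0334). Animal 3 stood far below the other CV samples. At the FG site WIF1 was 7.46 to 344 (median 61.9) in the buds and 4.44 to 241 (median 6.08) in LE, where the highest LE value was again from animal 3 (log2 change 2.50 ± 1.15, adjusted p = 0.0941, not called). The CV call was lost without animal 1, 4 or 5, without the filter and when values under 25 were raised to 25.

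Stromal markers were uneven over the same samples. The sum of 9 fibroblast and stroma markers was 725.5 in the CV sample of animal 3 and 3957 to 4573 in the other CV samples. It was 4686 in the FG-adjacent LE of animal 3 and 767.3 to 2304 in the other FG-adjacent LE samples, and the sum of 3 skeletal muscle markers in that sample was 4576, against 77.5 to 390.9 in the rest. That LE sample also had the highest ZNRF3 value of its group and, on the probe set read, the highest TCF7L2 value. On the TCF7L2 probe set ranked 2 in brightness, the same sample was the lowest of its group. The part of stroma in these genes was not tested.

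SFRP1, SFRP4, DKK3 and DKK4 were tested and called at neither site. SFRP4 was bright in both tissues (739 to 2279 in CV taste buds, 856 to 1694 in LE). SFRP1 was 13.98, 20.3, 33.5 and 18.1 in CV taste buds and 41.6, 90.4, 126 and 177 in LE, with all LE samples above all taste bud samples, and missed the threshold (log2 change -2.23 ± 0.93, adjusted p = 0.0766). DKK1, the best known blocker of LRP6, stayed under 25 units in all 28 samples. DKK2, SFRP2 and SFRP5 did not pass the filter in the first set, although DKK2 read 70.2, 55.4, 342 and 8.97 in CV buds against 4.48 to 6.62 in LE. Of the DKK receptors, KREMEN1 was tested and not called, and KREMEN2 reached 25 units in 2 samples.

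The sites were then compared with each other. CV and FG taste buds differed in 1 of the 40 Wnt genes, LGR5, where 0.378% of all tested probe sets were higher and 0.493% lower in CV. The epithelia beside them also differed in 1 gene, APCDD1, which was lower beside CV papillae, where 0.970% of all tested probe sets were higher and 0.294% lower. These were also the 2 genes for which the change from LE to taste bud differed between sites by the interaction test, with 0.271% of all probe sets higher and 0.600% lower. The remaining genes gave no call, which does not show that the sites are alike: for AXIN2 the difference between CV and FG taste buds was -0.31 ± 0.45 and for LRP6 -0.23 ± 0.71 on the log2 scale.

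LGR5 is a receptor for R-spondins and marks stem cells in the gut, and in mice it marks progenitors of posterior taste buds. Its intensity was 25.9, 290.5, 622 and 756 in CV taste buds of animals 1, 3, 4 and 5, and 4.61, 6.57, 5.16 and 5.93 in the adjacent LE. In FG taste buds of animals 1 to 6 it was 8.97, 6.82, 44.9, 5.30, 3.90 and 5.77, and in the LE beside them 4.28 to 10.9. LGR5 was under 25 units in every LE sample and in 5 of 6 FG samples. The CV sample of animal 1, at 25.9 units, lay within the FG range, whose highest sample was that of animal 3.

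LGR5 was higher in CV taste buds than in LE by 5.47 ± 0.82 on the log2 scale (adjusted p = 0.000179, at least 9.75-fold), and not called in FG buds (0.48 ± 0.67, adjusted p = 0.588). It was higher in CV than in FG taste buds by 4.69 ± 0.78 (adjusted p = 0.011), in 4 of 4 animals, and the interaction was 4.99 ± 1.06 (adjusted p = 0.0417). The difference between CV and FG taste buds was no longer called without animal 4 or 5, and the interaction without animal 2, 4, 5 or 6 or with values under 25 raised to 25. In the first set LGR5 reached 25 units in 4 CV samples and 1 FG sample. It therefore passed the filter only through the group in which it was high. The second probe set of LGR5 stayed below the filter and was not tested.

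The relatives of LGR5 gave no call between the sites. LGR6 was 180.2, 594, 454 and 337 in CV and 112 to 818 in FG buds (log2 difference -0.49 ± 0.43, adjusted p = 0.755), and the difference of LGR4 was 0.67 ± 0.89 (adjusted p = 0.858).

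APCDD1 is a membrane protein that binds Wnt ligands and LRP proteins and blocks signaling, and in humans it is known from hereditary hair loss. It was high in both kinds of taste bud, at 1520.1, 645, 972 and 752 in CV and 1271, 1340.0, 333, 1465, 799 and 1559 in FG. The epithelia differed: the LE beside CV papillae had 48.8, 83.7, 39.1 and 14.3, and the LE beside FG papillae 1815, 2363, 1496, 2205, 107 and 3681. In FG-adjacent LE 5 of 6 samples reached the level of the taste buds or more, and the sample of animal 5 did not. All 4 CV-adjacent samples lay below all FG-adjacent samples.

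APCDD1 changed by 4.57 ± 0.67 on the log2 scale in CV buds (adjusted p = 0.000151) and by -0.40 ± 0.55 in FG buds (adjusted p = 0.578), where LE was the higher in 5 of 6 animals. Between CV-adjacent and FG-adjacent LE the log2 difference was -4.68 ± 0.64 (adjusted p = 0.00364, lower beside CV papillae in 4 of 4 animals), and the interaction was 4.97 ± 0.87 (adjusted p = 0.0172). Pooling both epithelia into 1 group ended the CV call (adjusted p = 0.194). Leaving out animal 4 ended the difference between the epithelia (adjusted p = 0.0691), and leaving out animal 1, 3 or 4 ended the interaction. Basal keratinocyte markers were lowest in the FG-adjacent sample of animal 5 as well (a sum of 331.3, against 1851 to 4616 in the other 5), and lay at 859 to 2293 beside CV papillae. Their part in APCDD1 was not tested.

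**Figure D4:**
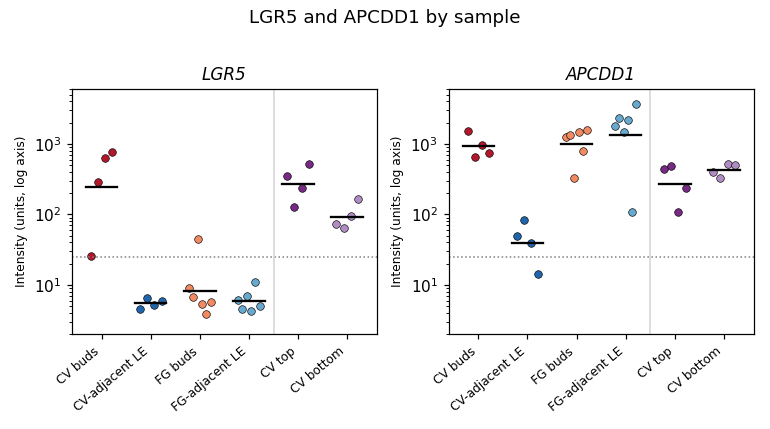
Intensity in each sample (points, log axis, units) of LGR5 and APCDD1 in the 6 groups, with the mean of the log2 values as a bar and the 25-unit minimum as a dotted line. The grey line separates the array sets. LGR5 is above 25 units in all samples of CV buds and their fractions and in 1 of 6 FG bud samples, and below it in all LE samples. APCDD1 is at 333 units or more in all whole taste buds and in 5 of 6 samples of FG-adjacent LE.

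In the second array set each CV bud was cut into a top fraction, on the side of the pore, and a bottom fraction at its base. Of 35 tested Wnt genes, 2 were lower in the top than in the bottom fraction and 0 were higher, where 1.46% of all tested probe sets were lower and 1.68% higher. At an unadjusted p under 0.05 there were 9. The share of all tested probe sets at that level is not given here, so no excess can be read from the 9. Both called genes, DKK3 and FZD4, were lower in the top in all 4 animals. With any single animal of the 4 left out, 0 genes were called, and the adjusted p rose to at most 0.135 for DKK3 and 0.155 for FZD4.

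FZD4 read 93.2, 99.0, 92.6 and 102 in the top fractions of animals 7 to 10 and 242, 350.4, 359.5 and 532 in the bottom fractions. The fractions did not overlap, and the log2 difference was -1.89 ± 0.27 (adjusted p = 0.0316). FZD4 was also far above CV-adjacent LE (8.58 to 12.2 units) in both fractions, by 3.30 ± 0.67 in the top (adjusted p = 0.000338) and 5.19 ± 0.67 in the bottom (adjusted p = 1.27e-06). Of the whole CV buds of the first set, 3 of 4 lay below every fraction.

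DKK3, a divergent member of the Dickkopf family, read 50, 15.2, 42.2 and 60.0 in the top fractions and 828, 276, 2516 and 422 at the bottom, without overlap (log2 difference -4.24 ± 0.49, adjusted p = 0.0235). In the first set its values scattered widely within every group, from 10.1 to 388 in CV taste buds and 10.6 to 574 in their LE. The next genes by adjusted p were not called. FZD7 was 46.4, 126, 336 and 185 in the top and 562, 478, 507 and 871 at the base (log2 difference -2.09 ± 0.48, adjusted p = 0.0744). WIF1 was 49.4, 140.0, 83.4 and 285 in the top and 430.0, 237, 485 and 527 at the base (-1.83 ± 0.47, adjusted p = 0.095). LGR5 was higher in the top in every animal, at 348, 125, 236 and 517 against 73.9, 64.8, 94.3 and 163 (1.54 ± 0.30, adjusted p = 0.0516).

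The genes that set taste buds apart from LE had no call between the fractions. AXIN2 was 631, 554, 851 and 829 in the top and 568, 739, 365 and 617 in the bottom fractions (log2 difference 0.35 ± 0.33, adjusted p = 0.612), with overlapping ranges. The differences were 0.17 ± 0.27 for LEF1, 0.02 ± 0.31 for NKD1, 0.59 ± 0.27 for ZNRF3, -0.32 ± 0.25 for LGR6 and 0.10 ± 0.25 for LRP6.

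Stromal and proliferation markers differed between the fractions. The sum of 9 fibroblast and stroma markers was 777 to 2071 in top and 5199 to 7339 in bottom fractions, with 6 of 8 tested markers called lower in the top. The sum of 7 cell cycle markers was 301 to 587 and 1588 to 3061, with 4 of 6 tested called lower in the top. Their part in the differences of DKK3, FZD4, FZD7 and WIF1 was not tested.

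**Figure D5:**
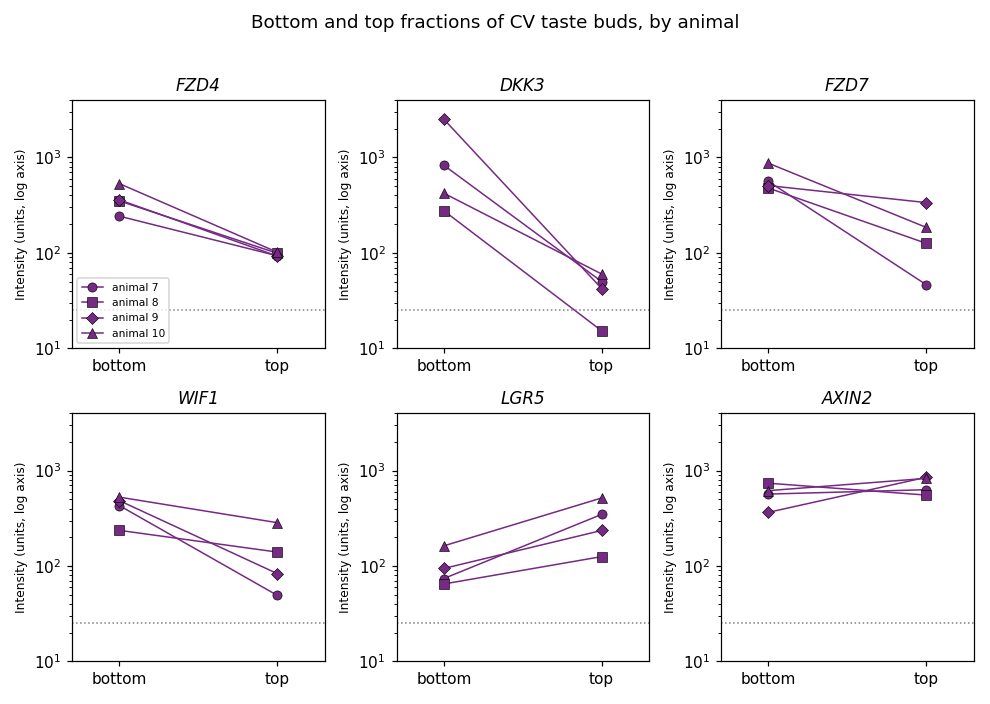
Intensity (log axis, units) of 6 Wnt genes in the bottom and the top fraction of CV taste buds, each line 1 animal, with the 25-unit minimum as a dotted line. FZD4 and DKK3 fall from bottom to top in all 4 animals and were called, FZD7 and WIF1 fall and LGR5 rises without a call, and AXIN2 shows no common direction.

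Each fraction was also set against CV-adjacent LE. Here the tissue and the array set cannot be told apart. The top fraction had 17 of 42 tested Wnt genes higher and 7 lower (25.1% and 19.3% of all tested probe sets), and the bottom fraction 18 higher and 5 lower (23.1% and 19.0%). LEF1 had the largest increase in both, by 6.45 ± 0.41 in the top (adjusted p = 5.23e-12) and 6.28 ± 0.41 in the bottom (adjusted p = 1.27e-11). WNT4 was again lower (log2 changes of -4.41 ± 0.46 and -4.02 ± 0.46), with 36.6, 24.8, 26.3 and 21.5 units in the top and 54.8, 34.4, 24.7 and 31.9 at the base. PORCN was called lower in the bottom (-1.57 ± 0.56, adjusted p = 0.0252), a call lost without animal 4, 9 or 10, and was not called in the top (-1.20 ± 0.56, adjusted p = 0.0816).

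Some inhibitors and receptors were called in the fractions and were not called, or not tested, in whole CV buds. DKK2, at 34.5, 35.8, 8.24 and 61.8 in the top and 30.2, 29.5, 14.8 and 144 in the bottom fractions, was higher than in LE (4.48 to 6.62 units) by 2.37 ± 0.77 and 2.77 ± 0.77. SFRP5 was called in the bottom only (27.2, 32.8, 231 and 25.3 units, log2 change 1.74 ± 0.55, adjusted p = 0.0138), and LGR4 in both (2.35 ± 0.83 and 2.64 ± 0.83). SFRP5 reached 25 units in 6 of 28 samples, 4 of them bottom fractions. DKK2 reached it in 9 samples, all of them CV buds or their fractions. Both passed the filter only through groups in which they were high. FZD7 was called in the bottom (log2 change 2.38 ± 0.76, adjusted p = 0.0143), and RNF43 in the top (3021, 3068, 3406 and 4015 units, log2 change 1.22 ± 0.24, adjusted p = 0.000203). WNT5A was lower in the bottom fraction on its brightest probe set (-1.21 ± 0.40, adjusted p = 0.0169). Its probe sets ranked 2 and 3 had the opposite sign, and the call was lost without animal 3 or 8. None of these genes was called between the fractions themselves (adjusted p = 0.576 for DKK2, 0.169 for SFRP5, 0.67 for LGR4, 0.14 for RNF43 and 0.474 for WNT5A).

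Genes of the pathway outside the symbol rule were followed in lists. Their probe sets were named in the same way, by the study's table of taste bud genes first. That table was selected on these samples for being higher in taste buds. Counts and medians of these lists are therefore not independent evidence of a direction either. Each gene was read on its brightest probe set only, and the alternatives described below were not run on these lists. Among co-receptors and extracellular partners, 6 of 10 tested genes were higher at the CV site and 6 at the FG site, and 0 were lower at either. Over all tested probe sets, 17.3% were higher and 18.0% lower in CV, and 21.1% higher and 20.2% lower in FG, which holds for the lists that follow as well. ROR1 and ROR2, receptor kinases that bind WNT5A, were higher by 6.22 ± 0.60 and 3.54 ± 0.51 in CV buds on the log2 scale, and by 3.85 ± 0.49 and 2.38 ± 0.42 in FG buds. The glypican GPC4, a cell surface proteoglycan that helps present ligands, was higher by 3.33 ± 0.62 and 4.23 ± 0.51. The median change of this list was 1.62 in CV and 1.49 in FG, where that of all tested probe sets was -0.08 and 0.05.

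Of 10 tested genes of the degrading complex and its kinases, 6 were lower and 1 higher in CV, and 5 lower and 1 higher in FG taste buds, with list medians of -0.97 and -0.61. GSK3B, the kinase that marks beta-catenin for degradation, was lower at both sites (-3.22 ± 0.44 in CV, -0.96 ± 0.36 in FG). AMER1, a membrane partner of APC, changed by -2.74 ± 0.56 and -1.97 ± 0.45, and the casein kinase CSNK1E changed by -2.37 ± 0.37 and -2.30 ± 0.30. CTNNBIP1, which blocks the binding of beta-catenin to TCF factors, was lower in FG (-2.28 ± 0.24) and not called in CV buds (-0.25 ± 0.29), and its interaction was called (2.03 ± 0.38, adjusted p = 0.024).

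Of 12 nuclear cofactors, 2 were higher and 2 lower in CV buds, near the shares over all probe sets, and 4 were higher and 1 lower in FG buds. TBL1X was lower (-3.09 ± 0.46 and -2.37 ± 0.37), BCL9 higher (1.74 ± 0.54 and 1.42 ± 0.44), and PYGO1 higher in FG (2.84 ± 0.60). A list of planar polarity genes, which orient cells within the epithelial sheet, and of effectors of the routes without beta-catenin had 4 of 13 higher and 5 lower in CV, and 5 higher and 4 lower in FG. The polarity genes among those higher included VANGL2 (4.52 ± 0.65 in CV, 3.28 ± 0.53 in FG), PRICKLE1 (3.57 ± 0.78 and 3.94 ± 0.64) and CELSR3 in CV (3.59 ± 0.65). Those lower at both sites were the effectors DAAM1, RHOA, MAPK8 and CAMK2D, with RAC1 lower in CV. The list was defined as a single group, and its parts were not compared. Its polarity genes without a call are not named here, so no direction of either part can be read from the named genes.

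Genes often used as Wnt targets had 6 of 14 higher and 2 lower in CV and 8 higher and 3 lower in FG taste buds, with medians of 0.59 and 1.51, the counts lower being near the shares over all probe sets. MMP7, a matrix protease, was higher by 8.35 ± 0.39 in CV and by 6.61 ± 0.32 in FG buds. BAMBI, a pseudoreceptor of the TGF-beta family, was higher by 6.19 ± 0.41 and 7.18 ± 0.33, and ASCL2, a factor of gut stem cells, was higher in CV (5.31 ± 0.63), with TNIK higher in FG (4.18 ± 0.50). MMP7 was the only gene of these lists that was called between the fractions, higher in the top by 1.59 ± 0.28 (adjusted p = 0.0435), and it was also higher in CV than in FG taste buds by 1.97 ± 0.38 (adjusted p = 0.0245).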

How the data were processed

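The authors extracted total RNA from laser-captured cells, amplified it and hybridized it to the Affymetrix Rhesus macaque array. The deposited values are linear intensities of 52024 probe sets, made by the authors with GC-RMA, which subtracts background and equalizes the distributions of all 28 arrays. Its version is not given in the sources used here. Arrays have no read depth, and the number of animals and the background limit the precision. In each sample, 37.3% to 40.8% of probe sets had 25 units or more.

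Probe sets were named by the table of taste bud genes of the study (1980 probe sets, part of that table being not used here) and otherwise by the single symbol of the array annotation. Columns of the authors' own fold changes and p-values in that table were not used. Of 52024 probe sets, 24956 have 1 annotated symbol, 361 several and 26707 none. The 58 genes lie on 107 probe sets, and 25 genes have more than 1, of which the brightest over all samples was taken.

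Intensities were log2 transformed and fitted with limma 3.58.1 in R 4.3.3. The 20 samples of the first set were fitted as 4 groups with the animal as a fixed block (11 residual degrees of freedom, 26176 probe sets), and the 8 fractions likewise (3 degrees of freedom, 21167 probe sets). For fractions against LE, all 28 samples entered 1 fit in which animals were a random block (27751 probe sets, correlation 0.0394). The interaction is the CV change minus the FG change. Only probe sets that reached 25 units in at least 4 samples of a fit were tested, and Benjamini-Hochberg adjustment covered all of them. The fit was also run on simulated data with independent noise and no animal effect. That run did not test the blocking, and its outcome is not given here. The animal is the replicate and comes from the labels, and log2 deviations from the group means correlated more between samples of the same animal than of different animals (0.0685 and -0.0224 for CV taste buds and LE, 0.0530 and -0.0107 for FG, 0.118 and -0.0382 for the fractions).

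Genes named with their values were, in each comparison within an array set, up to 8 called higher and 8 called lower with the largest changes, the Wnt genes that the text of the study names, and those needed to complete a family. Of each list outside the symbol rule, up to 3 called genes a comparison were named. The genes and lists were chosen with earlier results of these data known. Alternatives were run on genes within the symbol rule only. They covered scaling, low values, filter, probe set choice, naming, pairing, LE pooling, the methods' t-test and leaving out each animal.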

Additional observations from a re-analysis of the deposited data

Results flagged for a closer look

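Single samples stood far from the rest of their group in 8 of the 126 groups of 4 or 6 samples examined for the named genes, by the gap to the nearest other sample as a share of the range. Chance gives about 1 such sample in 20 groups. In FG-adjacent LE, APCDD1 was 106.7 in animal 5 and 1496 to 3681 in the others, and WIF1 was 240.8 in animal 3 and 4.44 to 6.68 in the others. In CV-adjacent LE, animal 1 was low for FZD1 (45.5, others 367.6 to 516.6) and LRP6 (7.45, others 150.5 to 233.2).

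In CV taste buds, WIF1 was 9.69 in animal 3 (others 160.4 to 248.8), LEF1 was 1826 in animal 1 (others 1246 to 1285) and FZD8 was 23.3 in animal 5 (others 29.9 to 31.4). In FG taste buds, LGR5 was 44.9 in animal 3 (others 3.90 to 8.97).

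The change from adjacent LE to taste bud differed between CV and FG sites for LGR5, by 4.99 on the log2 scale, and for APCDD1, by 4.97, both by the interaction term of limma (adjusted p = 0.0417 and 0.0172).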

How the results depend on the processing

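Across 22 alternatives, called directions of the 25 named genes within the symbol rule turned only with another probe set or name and, for APCDD1, with pooled LE. Of 77 called values of named genes, 38 missed the threshold or reversed under at least 1 alternative on arrays, names, pairing, filter or animals, and 39 under none. The brightest probe set that the annotation names is ranked 2 for FZD3, LRP6 and NKD1. On it, log2 changes against LE in CV, FG, top and bottom were -1.38, -0.72, -1.92 and -1.09 for FZD3, -0.38, -0.69, -1.15 and -1.53 for LRP6, and -0.47, -0.84, -0.22 and -0.19 for NKD1. The LRP6 probe set ranked 3, also named by the annotation, was called higher in CV and FG. FZD1 on its probe set ranked 3 had -1.08 in FG, -1.22 in the top and -1.07 in the bottom. WNT5A had 2.00 and 1.86 in the top and 1.13 and 1.01 in the bottom on its probe sets ranked 2 and 3. APCDD1 in the top had -0.25 against pooled LE.

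With annotation names alone, 6 of 37 tested genes were higher in CV and 6 in FG, and 11 of 39 in the top. Over all tested probe sets the shares higher were 17.3%, 21.1% and 25.1%. On the next brightest probe sets, 9 were higher in the top, 8 in the bottom, 3 differed between the epithelia, 1 between the fractions and 0 between CV and FG taste buds. The numbers tested on those probe sets, and their counts for whole buds against LE, are not given here. No excess can be read from these counts. The methods' t-test after Benjamini-Hochberg called 6 higher and 3 lower in CV, 7 and 3 in FG, and 0 in each of the other comparisons within an array set. At its own threshold of p and 5-fold it called 7 higher and 3 lower in FG, 1 interaction, 1 between the fractions and 0 between CV and FG taste buds. Raising values under 25 to 25 left 4 lower in FG and 1 interaction. Without the filter, 1 interaction and 0 differences between the fractions were called. Against pooled LE, 9 were lower in the bottom. For the t-test and the settings after it, shares over all probe sets are not given here. No excess can be read from those counts either.

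Leaving out 1 animal gave 0 to 1 genes between CV and FG taste buds, 0 to 1 between the epithelia, 0 to 1 interactions, 0 to 0 between the fractions, 5 to 8 lower in FG (5 without animal 3 or 4) and 4 to 9 lower in the top (4 without animal 1). Without the animal as a block, 12 genes were higher and 5 lower in CV, 12 and 8 in FG and 2 differed between the fractions. The pairing changed 1 call of a named gene, DVL2 in CV. Array medians over all probe sets differed from LE by -0.07 in CV, -0.16 in FG, -0.06 in the top and -0.02 in the bottom on the log2 scale, and those over tested probe sets by 0.20, 0.42, 0.54 and 0.41. Centring on the medians of all probe sets removed the calls of DVL2 in CV and of WNT6 and WNT9B in FG and added WNT5A in FG and LGR5 between the fractions, with 0 reversed directions.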
